A study of Mus musculus with 4 samples.

Results

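The cyclic AMP response and Rgs genes described here were a set of 9 genes, Ptger4, Ptger2, Adora2a, Pde4b, Pde4d, Crem, Creb1, Rgs1 and Rgs2. They were chosen by name from cyclic AMP signalling and the Rgs family, with results of these arrays known. A gene was measured by the probe set of highest mean among those that the array's annotation assigns to exactly 1 gene, which held for 8 of the 9 members and for 19937 genes in all. Adora2a, the gene of an adenosine receptor coupled to Gs, was not analysed here. The values came from 4 Affymetrix arrays of resting CD4 T cells purified from the spleens of adult mice aged 6 to 8 weeks, 2 arrays of Ifitm-/- cells and 2 of wild-type (WT) cells. The Ifitm-/- mice lack the whole Ifitm gene family (the study writes IfitmF-/-) and are described as on a C57BL/6 background, and the WT mice carry the family intact. No stimulus was given. Red cells were lysed, the CD4 T cells were obtained by depleting the other cells, and a pair of mice was pooled for each array. All changes are Ifitm-/- minus WT on the log2 scale of the normalized array intensity, and a gene is said to rise or fall where limma's p, adjusted over all 34760 probe sets, was under 0.05. By this rule 8.43% of all probe sets were called, 3.95% as lower and 4.48% as higher in Ifitm-/- cells.

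Cyclic AMP is a second messenger that restrains T cell activation. Receptors coupled to the stimulatory G protein Gs, such as the prostaglandin E2 receptors EP2 and EP4, switch on adenylyl cyclases, which make cyclic AMP. Protein kinase A then phosphorylates the transcription factor CREB, phosphodiesterases break the messenger down, and several of the brakes, among them Pde4 genes and the repressor forms of Crem, are themselves induced by it. Rgs proteins act on G proteins and shorten their signalling by speeding up the hydrolysis of GTP on alpha subunits, such as those of Gi and Gq.

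The preparation and the labels were examined first. Ifitm3 was at 4.48 ± 0.18 (SD, n = 2) in Ifitm-/- cells and 9.08 ± 0.25 in WT cells (change -4.60, adjusted p = 0.00778). The 5 deleted genes averaged 4.48 to 6.33 in Ifitm-/- cells, a range used below as a rough guide to background. It rests on 5 probe sets, each with its own response, and its top, that of Ifitm5, lies above the array medians. The 9 measured CD4 T cell markers lay between 10.60 and 12.29 on the Ifitm-/- arrays and between 10.02 and 13.03 on the WT arrays. Of these markers 5 were called, with Ccr7 (change -0.87) and Cd28 (-0.74) lower and Cd3d (0.59), Cd3g (0.59) and Il7r (0.46) higher in Ifitm-/- cells, and 4 were not. The X-linked Xist was at 4.64 ± 0.30 (SD, n = 2) in Ifitm-/- cells and 11.29 ± 0.05 in WT cells, so that the sex of the mice and the genotype cannot be told apart. Array medians were 6.22 to 6.25 for Ifitm-/- and 6.27 to 6.29 for WT. Fewer cells of a type and less RNA per cell cannot be told apart in these bulk samples.

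Most of the set was lower in the absence of the Ifitm family. Rgs1, Rgs2, Pde4b, Pde4d and Ptger4 fell by 0.83 to 1.44 log2 units, Creb1 rose by 0.63, and Crem and Ptger2 were not called. In total 5 of the 8 measured members fell, where 3.61% of all 19937 genes did, and 1 rose, where 4.96% of all genes did. Both Ifitm-/- arrays lay below both WT arrays for 6 of the 8 members, against 30.8% of all genes, and above both for 1, against 27.9%. The median change of the 8 members was -1.01, compared with -0.02 over all genes. The members were chosen with results of these arrays known, so the counts describe them and are no independent evidence. The study also required a difference of more than 2-fold and a span of 250 linear units or more. With this filter added to the present fit, 4 of the 8 members fell (0.853% of all genes did), namely Rgs1, Rgs2, Pde4b and Pde4d. Fewer genes passed here than the study reports.

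**Figure D1:**
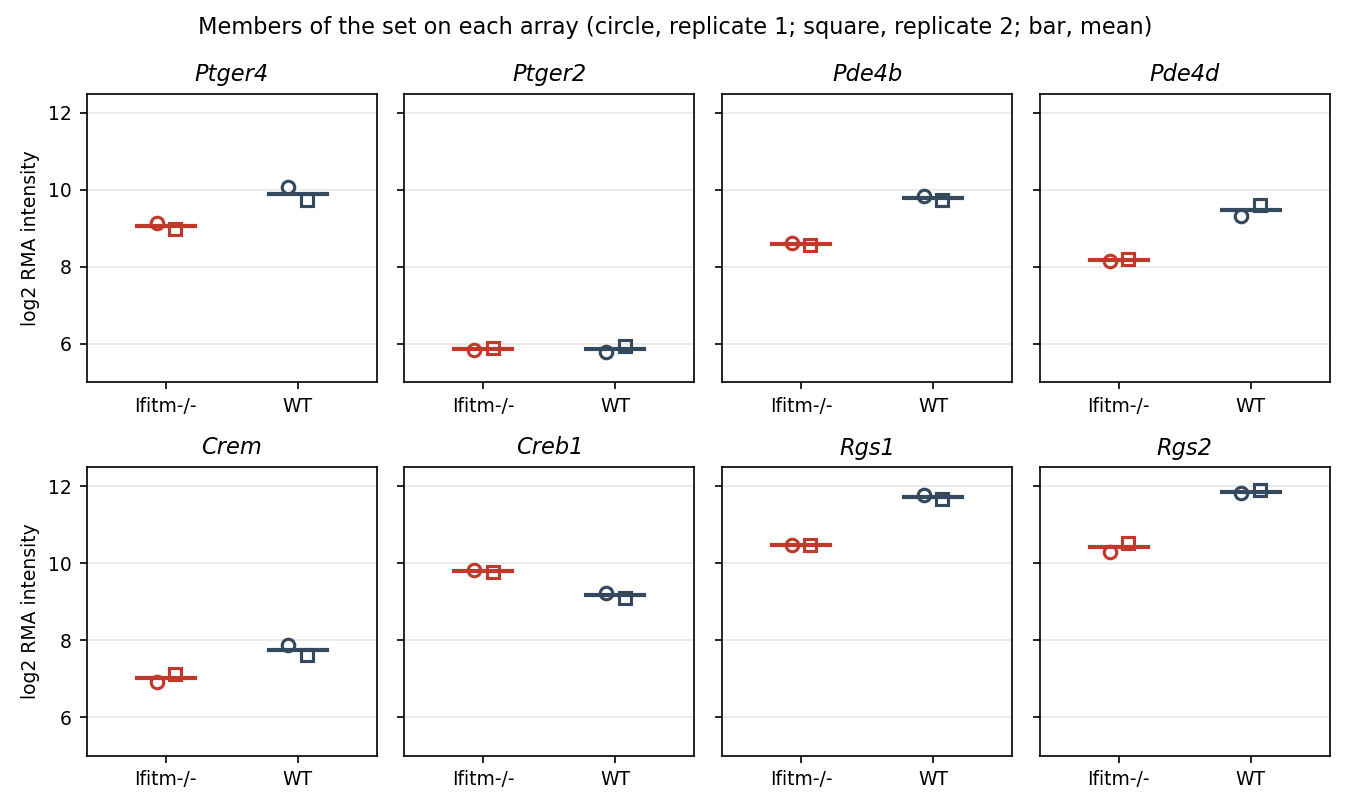
Log2 RMA intensity (y axis) of the 8 measured members on the Ifitm-/- arrays (left in each panel) and the WT arrays (right), with circles for replicate 1, squares for replicate 2 and bars for the mean of 2 arrays. The Ifitm-/- arrays lie below the WT arrays for Ptger4, Pde4b, Pde4d, Crem, Rgs1 and Rgs2, above them for Creb1, and overlap them for Ptger2; heights of different genes are not comparable, since each probe set has its own response.

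The receptors of prostaglandin E2 were considered as the entry to the pathway. Ptger4, which encodes EP4, had log2 intensities of 9.15 and 8.98 on the Ifitm-/- arrays and 10.07 and 9.72 on the WT arrays. The groups did not overlap, and the WT arrays lay 0.35 apart. Ptger4 fell 1.78-fold (change -0.83, 95% interval -1.23 to -0.43, adjusted p = 0.0486), close to the threshold. Ptger4 missed the threshold when the arrays were quantile normalized again (adjusted p = 0.0513) or centred on their medians (0.0540). It passed with a variance prior that follows intensity (0.0346), robust eBayes (0.0496), without dim probe sets (0.0279) and on probe sets of 1 gene alone (0.0229). Ptger2, which encodes EP2, was at 5.84 and 5.90 in Ifitm-/- cells and 5.79 and 5.94 in WT cells, and the groups overlapped. Its change of 0.0043 had a 95% interval of -0.25 to 0.26 (adjusted p = 0.985). All Ptger2 values lay within the range of the deleted Ifitm genes in Ifitm-/- cells, and 41.2% to 44.2% of all probe sets were dimmer on a given array.

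Both Pde4 genes fell by more than 2-fold. Pde4b, whose product hydrolyses cyclic AMP in T cells, was at 8.63 and 8.56 on the Ifitm-/- arrays, against 9.84 and 9.73 on the WT arrays. The nearest arrays of the genotypes stood 1.10 apart, while arrays of a genotype differed by at most 0.11. Pde4b fell 2.28-fold (change -1.19, 95% interval -1.42 to -0.95, adjusted p = 0.0141). Pde4d, which encodes a related cyclic AMP phosphodiesterase, was at 8.15 and 8.20 in Ifitm-/- cells, against 9.32 and 9.60 in WT cells. It fell 2.44-fold (change -1.28, 95% interval -1.61 to -0.96, adjusted p = 0.018). Pde4d is the member with several probe sets, and they did not move alike. A second one fell by 0.71 (7.31 and 7.37 in Ifitm-/- cells, 7.99 and 8.11 in WT cells, adjusted p = 0.0262). The third, at 4.35 and 4.32 in Ifitm-/- cells and 3.85 and 4.24 in WT cells, was among the dimmest of the array and had a change of 0.29 (adjusted p = 0.318). Averaged over the 3 probe sets the change of Pde4d was -0.57.

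Of the transcription factors at the end of the pathway, Creb1 rose and Crem was not called. Crem, whose inducible repressor form ICER switches off cyclic AMP target genes, had intensities of 6.91 and 7.13 on the Ifitm-/- arrays and 7.87 and 7.61 on the WT arrays. The groups did not overlap, but arrays of a genotype differed by 0.22 and 0.26, and the change of -0.72 (95% interval -1.09 to -0.35) missed the threshold at an adjusted p of 0.0544. It passed with a variance prior that follows intensity (adjusted p = 0.0471), with renewed quantile normalization (0.0461), without dim probe sets (0.0315) and on probe sets of 1 gene alone (0.0268), and missed it with robust eBayes (0.0554) and with arrays centred on their medians (0.0662). Creb1, which encodes CREB itself, was at 9.83 and 9.78 in Ifitm-/- cells, against 9.24 and 9.10 in WT cells. Creb1 rose 1.55-fold (change 0.63, 95% interval 0.39 to 0.87, adjusted p = 0.0322).

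Both Rgs genes fell by more than 2-fold, and Rgs2 had the largest change of the set. Rgs1, whose product dampens chemokine receptor signalling through Gi in lymphocytes, was at 10.48 and 10.47 on the Ifitm-/- arrays and 11.77 and 11.67 on the WT arrays. The Ifitm-/- arrays differed by 0.01, and the genotypes stood 1.19 apart at their nearest arrays. Rgs1 fell 2.37-fold (change -1.25, 95% interval -1.47 to -1.02, adjusted p = 0.0141). Rgs2, whose product is best known for acting on Gq and also restrains adenylyl cyclases, was at 10.29 and 10.53 in Ifitm-/- cells, against 11.82 and 11.89 in WT cells. It fell 2.72-fold (change -1.44, 95% interval -1.75 to -1.14, adjusted p = 0.0144), and 95 of the 19937 genes had a change as low or lower. On each WT array over 98% of probe sets were dimmer than Rgs1 and than Rgs2. On the Ifitm-/- arrays 95.5% and 95.4% were dimmer than Rgs1, and 94.7% and 95.6% were dimmer than Rgs2. Both genes stayed among the brighter probe sets in cells without the Ifitm family.

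**Figure D2:**
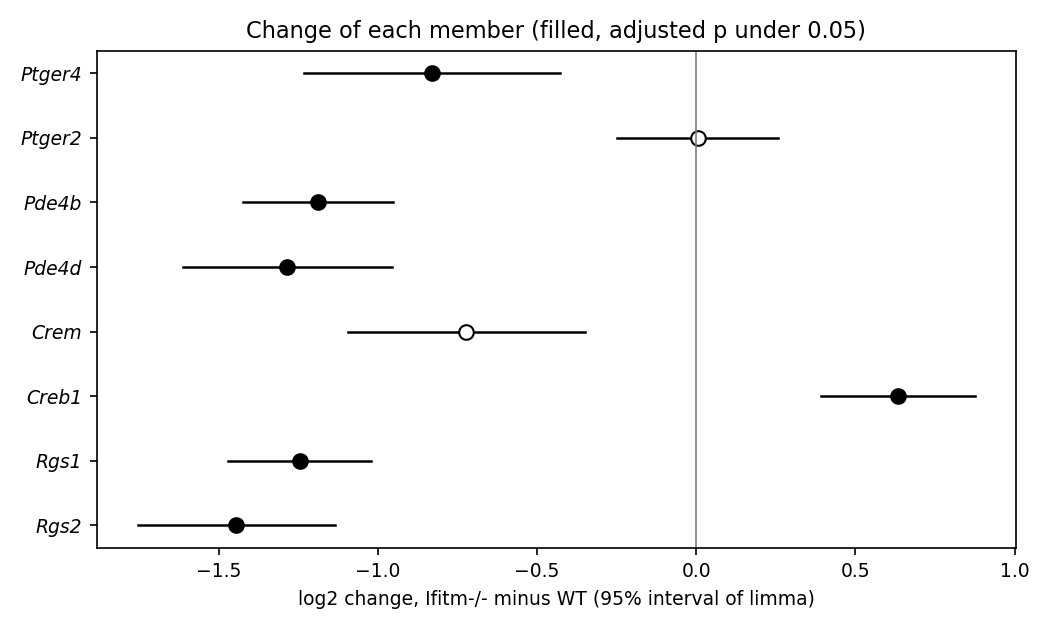
Change of each of the 8 measured members (x axis, log2, Ifitm-/- minus WT), with the 95% interval of limma as a line and a filled circle where the adjusted p was under 0.05. Rgs2 has the largest fall at -1.44, Creb1 the one rise at 0.63, and the interval of Ptger2 spans 0.

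Paralogues were compared within each array, so that any scaling of the array cancels. The change of Ptger4 minus that of Ptger2 was -0.83, which restates the change of Ptger4. Ptger2 lay within the range of the deleted Ifitm genes and may give no measure of EP2. The change of Crem minus that of Creb1 was -1.35 (two-sided exact permutation p = 0.333 for either pair, the smallest that 2 against 2 arrays allow). Pde4b and Pde4d differed in their change by 0.096 (exact permutation p = 1), and Rgs1 and Rgs2 by 0.20 (exact permutation p = 0.667). Over these 4 pairs the Benjamini-Hochberg adjusted exact p values were 0.667 to 1. No pair could pass at this number of arrays, and the values are a description.

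Promoter sequences of RefSeq (build GRCm38.p6) were read for the cyclic AMP response element, the DNA letters that CREB and Crem proteins bind, because 5 of the members fell together. The windows hold 250 bases before to 50 bases after a transcript's start. Crem was left out of this search, so the counts say nothing of its promoters, and Rgs1 and Adora2a had no window. The other 6 members had 9 windows, 4 of them of Pde4b. The full element TGACGTCA was in 0 of the 9 windows, and in 1.79% of all 32851 windows. The half-site TGACG, which is part of the full element, was searched on both strands and was in 2 of the 9 windows, against 20.8% of all windows. These were the Rgs2 window at chr1:144004100-144004399 on the minus strand and the Pde4b window at chr4:102421305-102421604 on the plus strand. Both are shown 5′ to 3′ because they are the windows with a match, which is in capitals (CGTCA is the half-site read on the other strand).
Rgs2: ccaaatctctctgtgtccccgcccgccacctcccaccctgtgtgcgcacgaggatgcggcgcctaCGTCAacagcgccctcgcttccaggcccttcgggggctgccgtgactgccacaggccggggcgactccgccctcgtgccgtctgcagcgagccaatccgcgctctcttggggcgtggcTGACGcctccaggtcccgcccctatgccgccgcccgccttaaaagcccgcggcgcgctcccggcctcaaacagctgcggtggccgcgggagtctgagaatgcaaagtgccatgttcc
Pde4b: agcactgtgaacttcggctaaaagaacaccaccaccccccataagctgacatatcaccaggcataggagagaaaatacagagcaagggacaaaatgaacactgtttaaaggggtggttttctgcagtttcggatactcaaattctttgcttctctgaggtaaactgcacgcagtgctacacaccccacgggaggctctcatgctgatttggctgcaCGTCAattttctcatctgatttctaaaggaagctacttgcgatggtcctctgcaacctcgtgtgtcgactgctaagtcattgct
In the Rgs2 window the half-sites begin 185 and 67 bases before the start, and in the Pde4b window the half-site begins 34 bases before it. The windows of Creb1, Pde4d, Ptger2, Ptger4 and the other Pde4b starts held none. A match is a run of letters and no measurement of binding.

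Rgs1 and Rgs2 lie close together on chromosome 1, in a run of Rgs genes with no other protein-coding gene between them in the order Rgs2, Rgs13, Rgs1, Rgs21 and Rgs18. No other gene of this run was called. Rgs13, which lies between the members, was at 4.43 and 4.43 in Ifitm-/- cells and 4.50 and 4.30 in WT cells, with a change of 0.028 (adjusted p = 0.889). Rgs21 had a change of 0.092 (adjusted p = 0.627), and both lay at or below the level of the deleted Ifitm genes. Rgs18, which was chosen after its values were seen and is known from platelets and their precursors, was at 8.57 and 9.78 in Ifitm-/- cells and 8.16 and 7.64 in WT cells. Its change of 1.27 was not called (adjusted p = 0.173), and its Ifitm-/- arrays differed by more than 1 log2 unit.

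Further along chromosome 1, Rgs16 showed the largest change of its family. Rgs16, whose product acts on Gi and Gq and is induced in activated T cells, was at 7.25 and 7.33 on the Ifitm-/- arrays and 9.92 and 9.82 on the WT arrays. It fell 5.96-fold (change -2.58, adjusted p = 0.00778). In the whole Rgs family 20 of 21 genes were measured, of which 4 fell, 1 rose and 15 were not called. Besides Rgs1, Rgs2 and Rgs16 the retinal Rgs9 fell by 0.58, with dim values of 6.00 and 5.85 in Ifitm-/- cells and 6.46 and 6.56 in WT cells (adjusted p = 0.0424). Its Ifitm-/- values lay within the range of the deleted Ifitm genes. Rgs14, a scaffold that binds Gi and Ras family proteins, rose by 0.61 and was at 8.59 and 8.65 in Ifitm-/- cells, against 8.05 and 7.97 in WT cells (adjusted p = 0.0297). The most intense members of the family that were not called were Rgs19 (change 0.59, adjusted p = 0.0528) and Rgs3 (change 0.49, adjusted p = 0.131).

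**Figure D3:**
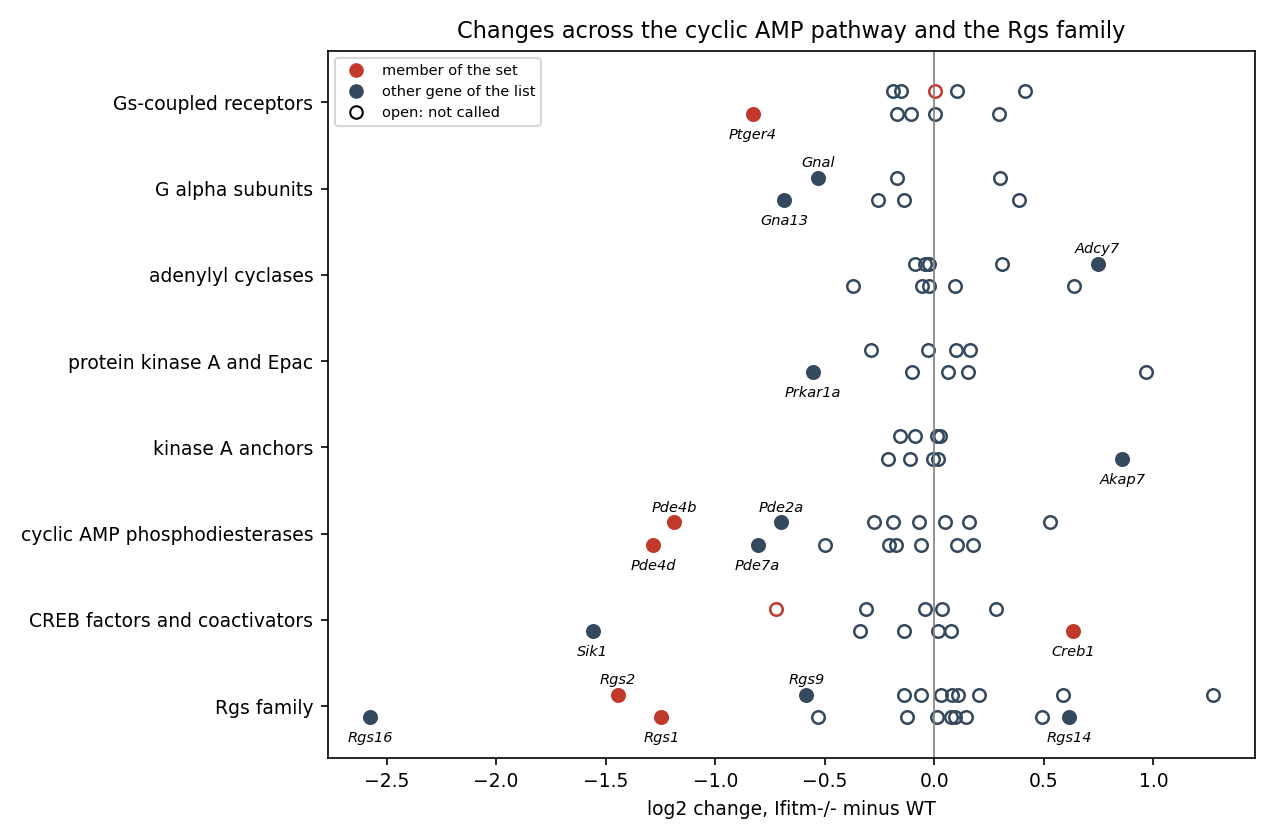
Changes (x axis, log2, Ifitm-/- minus WT) of all measured genes in 7 lists of the cyclic AMP pathway and in the Rgs family, in red for the members of the set and dark blue for other genes, filled where the adjusted p was under 0.05. Rgs16 at -2.58 and Sik1 at -1.56 are the largest falls among the other genes, and most points of each list lie near 0.

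The 7 pathway lists and the Rgs family held 84 measured genes that are not members. Of these 8 fell, 3 rose and 73 were not called. The Rgs family gave 18 of the 84, of which 2 fell and 1 rose, as told above. The median change of the 84 genes was -0.02, as was that of all genes, and 3.61% of all genes fell and 4.96% rose. Among cyclic AMP phosphodiesterases, 2 of the 14 other genes fell and 0 rose by limma. Pde7a, which encodes a cyclic AMP phosphodiesterase of T cells, was at 9.29 and 9.32 in Ifitm-/- cells, against 10.20 and 10.03 in WT cells (change -0.81, adjusted p = 0.024). Pde2a, whose product is stimulated by cyclic GMP, was at 9.39 and 9.20, against 10.11 and 9.88 in WT cells (change -0.70, adjusted p = 0.0490). Pde3b had a change of -0.27 (adjusted p = 0.132) and Pde1b of -0.21 (adjusted p = 0.337).

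Of the 9 other CREB factors and coactivators, Sik1 fell and the rest were not called. Sik1, a kinase that keeps the CREB coactivators out of the nucleus and is itself a CREB target, was at 9.71 and 9.82 on the Ifitm-/- arrays and 11.33 and 11.31 on the WT arrays. It fell 2.95-fold (change -1.56, adjusted p = 0.0126). The histone acetyltransferase genes Crebbp and Ep300 had changes of -0.14 (adjusted p = 0.338) and 0.28 (adjusted p = 0.116).

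Genes of the enzymes and G proteins were mostly not called. Of 10 adenylyl cyclases 1 rose and 0 fell by limma. Adcy7, the cyclase typical of blood cells, was at 10.35 and 10.20 in Ifitm-/- cells, against 9.62 and 9.44 in WT cells (change 0.75, adjusted p = 0.0338). Adcy6 had a change of 0.64 (adjusted p = 0.0511) and Adcy3 of -0.025 (adjusted p = 0.925). Of 9 genes of protein kinase A and Epac, Prkar1a, which encodes a regulatory subunit of the kinase, fell by 0.56 and was at 10.53 and 10.56 in Ifitm-/- cells, against 11.11 and 11.10 in WT cells (adjusted p = 0.0307). The catalytic subunit gene Prkacb had a change of 0.16 (adjusted p = 0.318). Of 9 kinase A anchors, Akap7 rose by 0.86, with values of 6.88 and 7.19 in Ifitm-/- cells and 6.28 and 6.08 in WT cells (adjusted p = 0.0436). Its WT values lay within the range of the deleted Ifitm genes, so that the size of the change is uncertain. Akap8 (-0.16) and Akap13 (-0.21) were not called (adjusted p = 0.359 and 0.230).

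Among 7 measured G alpha subunit genes 2 were called, both lower. Gna13 fell by 0.69 and was at 10.95 and 10.83 on the Ifitm-/- arrays, against 11.56 and 11.59 on the WT arrays (adjusted p = 0.0265). The olfactory Gnal passed the test at a change of -0.53 (adjusted p = 0.0457), but its values of 5.64 and 5.73 in Ifitm-/- cells and 6.15 and 6.28 in WT cells all lay within the range of the deleted Ifitm genes, so a level of its transcript was not shown in either genotype. Gnai2 (change 0.30, adjusted p = 0.0969) and Gnai3 (-0.14, adjusted p = 0.333) were not called. None of the 8 other measured Gs-coupled receptor genes was called. The receptor gene of vasoactive intestinal peptide, Vipr1, had a change of 0.41 (adjusted p = 0.0986) and the histamine receptor gene Hrh2 of 0.11 (adjusted p = 0.489).

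Genes whose pattern was most like that of each called member were found by the distance between their 4 log2 values, each taken relative to the gene's own mean. Rgs1 and Pde4b were each among the 3 nearest genes of the other, at a distance of 0.070. The nearest gene of Rgs1 was Impact (distance 0.024, change -1.25), with Sytl3 (change -1.29) next. The nearest genes of Pde4b besides Rgs1 were Wsb1 (-1.27) and Impact. Pde4d was nearest to Stat5a (distance 0.029, change -1.26), Tiprl (-1.26) and Snord16a (-1.22). Rgs2 was nearest to Nfkb2 (distance 0.11, change -1.49), Tnfrsf4 (-1.43) and Dennd4a (-1.37). Ptger4 was nearest to Eomes (distance 0.060, change -0.79), Six4 (-0.86) and Elovl4 (-0.83), and Creb1 to Ppdpf (distance 0.015, change 0.64), Trappc5 (0.63) and Tnfsf10 (0.63). With 4 arrays such likeness is a description only. Within a distance of 0.5 lay 172 genes for Rgs2, 281 for Rgs1 and 3967 for Creb1, of 19937 genes in all. That limit is wider than the distances above, and likeness at those distances was not counted.

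Other transcripts that parted the genotypes or the replicates were set beside these values. Over all 19937 genes 3.61% fell and 4.96% rose. Both Ifitm-/- arrays lay below both WT arrays for 30.8% of all genes and above both for 27.9%. Each count in this paragraph is to be read against these shares. Immediate early genes, which respond within minutes to stimulus or handling, fell in 20 of 35 cases and rose in 0 by limma, with a median change of -0.91. Their summed linear intensity was 30754 and 31601 in Ifitm-/- cells and 65802 and 60570 in WT cells. The falls on this list included Nr4a3 (change -3.33) and Fosb (-2.47), and the 15 genes not called included Fos (-0.04), Jun (-0.11) and Egr1 (-0.43). The list was chosen by name without the members, so their absence from it is no result. The part of the immediate early genes' response in the members' change was not tested. B cell markers, of which 0 of 11 were called by limma, summed in linear units to 4135 and 6318 in Ifitm-/- cells and to 15037 and 5221 in WT cells, so that WT replicate 1 stood apart. Without WT replicate 1 the changes were -1.19 for Rgs1, -1.48 for Rgs2, -1.13 for Pde4b, -1.42 for Pde4d, -0.66 for Ptger4, -0.59 for Crem and 0.70 for Creb1. Platelet markers, of which 0 of 4 were called, summed to 4556 and 10368 in Ifitm-/- cells and 3563 and 2320 in WT cells. They were highest on Ifitm-/- replicate 2, as were Rgs18 and Prkar2b, another gene of platelets (8.18 and 8.77 in Ifitm-/- cells, 7.28 and 7.74 in WT cells, change 0.97, adjusted p = 0.108). Of 5 erythroid markers 0 were called and 4 were above both WT arrays. The 5 summed to 6366 and 5767 in Ifitm-/- cells and 2657 and 3906 in WT cells. Rhag had a change of 2.40 (adjusted p = 0.220) and Slc4a1 of 1.68 (adjusted p = 0.209). Their WT arrays differed widely, at 5.05 and 7.94 for Rhag and 9.24 and 11.19 for Slc4a1. Alas2 overlapped between the genotypes, with a change of -0.0035. Plasma cell markers, of which 0 of 5 were called and all 5 were below both WT arrays, summed to 1974 and 1840 in Ifitm-/- cells and 3844 and 2606 in WT cells. Of 7 neutrophil markers 5 were above both WT arrays. Retnlg, at 6.94 and 7.21 in Ifitm-/- cells and 5.24 and 5.25 in WT cells, rose by 1.83 (adjusted p = 0.0136). The 6 markers not called lay within or below the range of the deleted Ifitm genes on every array. The summed intensity of the 7 markers was 390.0 and 402 in Ifitm-/- cells and 260.3 and 271 in WT cells. Myeloid markers, with 0 of 10 called, summed to 3833 and 7366 in Ifitm-/- cells and 5986 and 3537 in WT cells. Of 6 regulatory T cell markers 4 were below both WT arrays and the median change was -0.35. Ctla4 and Tnfrsf18 fell by 1.47 and 0.78 and Il2ra rose by 0.51, while Ikzf2 (-0.42, adjusted p = 0.110), Nrp1 (-0.27, adjusted p = 0.142) and Foxp3 (0.23, adjusted p = 0.161) were not called. Of 6 follicular helper T cell markers 5 were below both WT arrays and 1 was above, with a median change of -0.39. Pdcd1 fell by 0.62 and Sh2d1a rose by 0.75. Of 8 NK cell markers 1 was below both WT arrays and 4 were above. Nkg7 fell by 0.89, and Klrd1 was not called (change 1.11, adjusted p = 0.0683). Of 2 CD8 T cell markers 0 were called. The part of any of these cell types in the members' values was not tested.

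Each array was left out in turn. The change of Rgs1 then lay between -1.30 and -1.19, of Rgs2 between -1.57 and -1.32, of Pde4b between -1.24 and -1.13 and of Pde4d between -1.42 and -1.15. Ptger4 had its smallest change, -0.66, without WT replicate 1. Crem lay between -0.85 and -0.59, and Creb1 lay between 0.57 and 0.70. All 6 called members kept their direction. Without any one of the 4 arrays limma called 0 of 34760 probe sets, members included. An unadjusted p under 0.05 was reached by 7 of the 8 members in each of these fits and also with all 4 arrays, where 25.8% of all genes reached it.

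**Figure D4:**
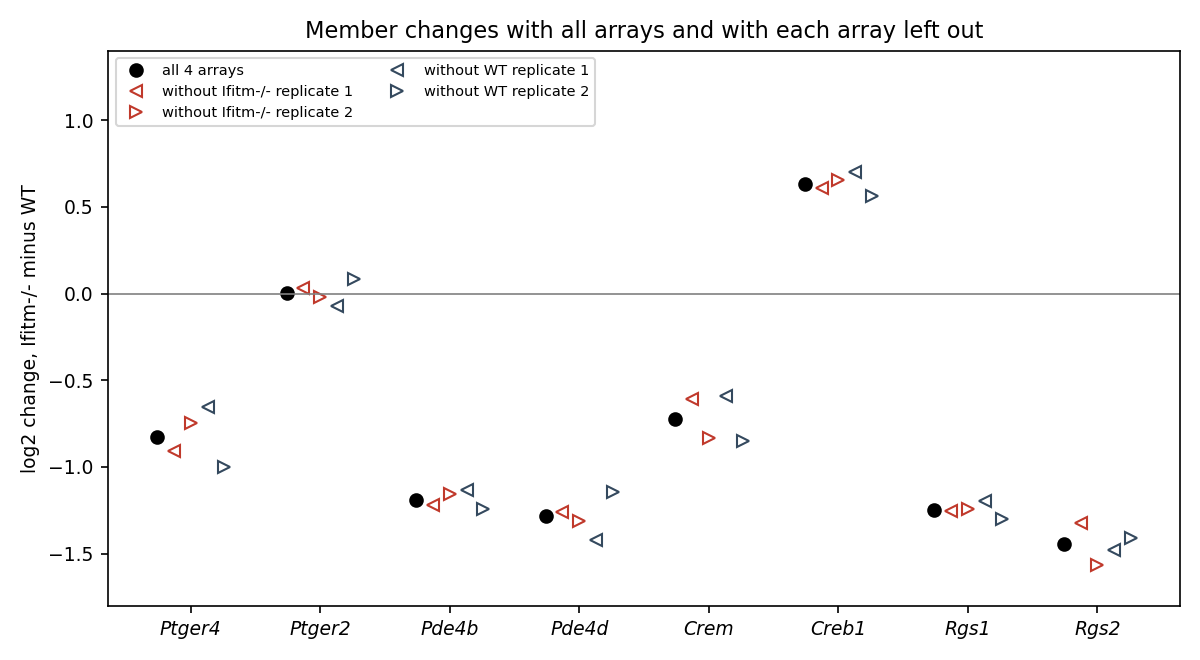
Change of each member (y axis, log2, Ifitm-/- minus WT) with all 4 arrays (black circles) and with each array left out (open triangles, red for an Ifitm-/- array and dark blue for a WT array). Rgs2 stays between -1.57 and -1.32 and Creb1 between 0.57 and 0.70, while Ptger2 lies on either side of 0.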

How the data were processed

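Resting CD4 T cells were profiled on Affymetrix Mouse Gene ST arrays, 2 per genotype, from separate purifications. The authors deposited linear intensities after RMA, which corrects background, applies quantile normalization and summarises probes. The submitters' notes named RMA and affy; their versions are not given in the sources used here. Such normalization makes changes relative to the whole array. The number of arrays limits the precision. Log2 intensities of all 34760 probe sets were computed and fitted by genotype with lmFit and eBayes of limma 3.58.1 (R 4.3.3). No covariate was used, and there were 2 residual and 2.39 prior degrees of freedom. The p values were Benjamini-Hochberg adjusted over every probe set, and the threshold was 0.05. The code was run on simulated data with independent noise, which does not measure the error rate on these arrays. Of the probe sets, 21640 had 1 gene in the platform annotation, 1321 several and 11799 none; symbols were updated through gene IDs (assembly GRCm38.p6). The members and gene lists were chosen with earlier results of these data known. All members were named, as were called genes of the pathway lists, up to 2 uncalled genes of highest mean per list and the 3 genes of nearest pattern to each called member, without predicted genes. The study's own array analysis used empirical Bayes moderated t statistics with FDR, as the main fit does. Alternatives were a plain Student t-test, named in the study's statistics section, and eBayes with trend or robust. Others were arrays centred on medians or quantile normalized again, dim probe sets removed and 1-gene probe sets alone. A replicate block, the study's filter, averaged probe sets and each array left out were also run.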

Additional observations from a re-analysis of the deposited data

How the results depend on the processing

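Of the 8 members, 5 fell and 1 rose among 2930 probe sets called. Of the other pathway genes, among which the Rgs family is counted here, 8 fell and 3 rose. The members' counts were unchanged under robust eBayes, which called 2843 probe sets. In the following settings 4 to 6 members fell and 1 rose. Of 34760 probe sets, trend called 3678, renewed quantile normalization 2963 and median centring 2993. Without dim probe sets 4032 of 17380 were called, and on probe sets of 1 gene 3037 of 21640. In each of these settings the share called was above the 8.43% of the main fit. Other pathway genes that rose numbered 6 with trend and 5 without dim probe sets or on probe sets of 1 gene. With the study's filter 403 probe sets, 4 falling and 0 rising members, and 2 falling and 0 rising other pathway genes passed. The study reports a larger number of genes under its criteria, and the reason was not tested. The plain Student t-test called 6811 probe sets at an unadjusted p under 0.05, with 17 other pathway genes falling and 8 rising. After Benjamini-Hochberg adjustment that test called 4 probe sets and 0 members and 0 other pathway genes in either direction. The arrays share only a replicate number (correlation of deviations -0.12). With the replicate block 0 probe sets were called, in members and other pathway genes alike, while 8016 probe sets and 7 members had an unadjusted p under 0.05. The adjusted p was then 0.132 for Crem and 0.0748 for Ptger4. A crossed pairing, added after seeing the data, called 975 probe sets, 4 falling and 0 rising members, and 2 falling and 1 rising other pathway genes, with an adjusted p of 0.0543 for Crem and 0.0885 for Ptger4. Leaving out each array gave 0 calls for all these counts, and 6062 to 9107 probe sets had an unadjusted p under 0.05; limma then has 1 residual degree of freedom and the lone array is assumed to vary like the others. In these fits the change of Ptger2 reversed, between -0.075 and 0.083, and so did the difference in change of Pde4b and Pde4d, between -0.098 and 0.29. Apart from Ptger2 no member changed direction under any alternative run; the cause of the lost calls was not tested.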
